A study of Mus musculus with 9 samples.

Results

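The genes described here are 6 genes of dopamine neurons (Th, Ddc, Gch1, Slc18a2, Slc6a3 and Nr4a2) and 2 calcium-buffer genes (Calb1 and Calb2), 8 of the 23494 genes in the expression tables. They were listed by name, and each was represented by the RefSeq transcript with the highest mean level, taken from 10 transcripts of these genes among 30978. Th and Calb1 were chosen by their RPKM values, which were already known to be high in the homozygous mutant libraries, so their rise is given as a description with no test. The other members were listed for their function beside Th. 6 of the 8 genes reached the minimum level for the test across genes, and Gch1 and Slc6a3 did not. Th and Ddc reached it only because of the homozygous libraries.

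RNA came from cerebral cortex of mouse embryos at E13.5, of the strain C57BL/6+C57BL/6J+CBA, with 9 libraries: 3 of control, 3 of heterozygous (Sfpq+/-) and 3 of homozygous (Sfpq-/-) embryos. Sfpq encodes a nuclear RNA-binding protein. Ribosomal RNA was removed, so RNA with and without a poly(A) tail was read. The labels do not state how the mutation was made, which part of the gene it removes, whether a Cre driver was used, or what alleles the controls carry; they name the cells as neural stem cells and neurons. Levels are RPKM, the reads on a transcript divided by its length in kilobases and by the library's reads in units of 1e6, which can be compared between genes. In these bulk samples, fewer cells of a type and less RNA per cell cannot be told apart.

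Catecholamines are made in steps: tyrosine hydroxylase (Th) makes L-DOPA from tyrosine using the cofactor tetrahydrobiopterin, whose synthesis starts with GTP cyclohydrolase (Gch1), and DOPA decarboxylase (Ddc) turns L-DOPA into dopamine. Slc18a2 encodes the vesicular transporter VMAT2, which loads monoamines into vesicles, Slc6a3 the dopamine transporter of the cell surface, and Nr4a2 the nuclear receptor Nurr1, needed for midbrain dopamine neurons and also expressed in cortical subplate neurons. Calbindin (Calb1) and calretinin (Calb2) are EF-hand proteins that bind calcium in the cytoplasm and mark subsets of neurons, calretinin among them Cajal-Retzius cells of the embryonic cortex.

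Promoter sequences show what lies in front of the genes of the pathway that moved and of one that did not. RefSeq sequences of GRCm38.p6 were found for 6 of the 8 genes; the entries for Calb1 and Calb2 were not in the table used. Each line gives the 250 bases before a transcription start, 5′ to 3′ on the gene's strand, from chr7:142899996-142900245 (minus strand) for Th, chr11:11898145-11898394 and chr11:11890409-11890658 (both minus strand) for the 2 starts of Ddc, and chr19:59260628-59260877 (plus strand) for Slc18a2. Capitals mark matches, on either strand, to 4 motifs: the cAMP response element CRE (TGACGTCA), AP-1 (TGANTCA), the NR4A receptors' element NBRE (AAAGGTCA) and a TATA box (TATAAA).
Th: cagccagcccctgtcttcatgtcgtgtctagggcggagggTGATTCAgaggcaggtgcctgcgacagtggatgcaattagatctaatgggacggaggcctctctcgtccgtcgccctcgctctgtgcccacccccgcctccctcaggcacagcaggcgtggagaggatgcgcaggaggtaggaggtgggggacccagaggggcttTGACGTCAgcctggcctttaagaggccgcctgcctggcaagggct
Ddc start 1: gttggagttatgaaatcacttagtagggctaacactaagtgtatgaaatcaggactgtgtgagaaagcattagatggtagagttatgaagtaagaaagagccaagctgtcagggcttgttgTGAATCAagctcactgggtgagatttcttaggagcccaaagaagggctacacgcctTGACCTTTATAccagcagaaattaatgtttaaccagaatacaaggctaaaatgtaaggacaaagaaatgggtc
Ddc start 2: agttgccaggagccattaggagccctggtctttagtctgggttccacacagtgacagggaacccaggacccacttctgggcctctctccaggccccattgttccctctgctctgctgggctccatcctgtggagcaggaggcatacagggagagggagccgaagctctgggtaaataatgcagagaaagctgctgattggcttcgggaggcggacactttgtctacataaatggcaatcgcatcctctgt
Slc18a2: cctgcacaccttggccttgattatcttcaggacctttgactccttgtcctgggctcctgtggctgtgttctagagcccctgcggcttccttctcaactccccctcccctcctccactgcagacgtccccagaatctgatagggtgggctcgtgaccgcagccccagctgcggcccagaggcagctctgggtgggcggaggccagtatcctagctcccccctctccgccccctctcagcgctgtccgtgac
The Th sequence held a CRE 45 to 38 bases and an AP-1 match 210 to 204 bases before the start. The first Ddc sequence held an AP-1 match at 129 to 123 bases and an NBRE match at 73 to 66 bases, which overlapped a TATA match at 68 to 63 bases. The second Ddc sequence and that of Slc18a2 held no match, nor did the one of Slc6a3, while those of Gch1 and Nr4a2 each held a TATA match (188 to 183 and 164 to 159 bases before the start). Over 32851 promoters of the same length, the CRE was found in 1.55%, AP-1 in 6.75%, the NBRE in 1.34% and the TATA match in 12.4%. These matches are letters in a window and were not tested as binding sites.

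The libraries held an estimated 169 to 205 M reads each (M, 1e6), read from the steps between low values. Sfpq checked the labels: the 3 control libraries held 184, 202 and 218 RPKM, the heterozygous 185, 163 and 169 RPKM and the homozygous 26.1, 28.6 and 27.6 RPKM, so the homozygous mean was 13.6% and the heterozygous mean 85.6% of control. Across 12291 genes tested with limma (Benjamini-Hochberg adjusted p below 0.05), 4209 differed between homozygous and control cortex, 1764 higher and 2445 lower, and the median log2 difference over all genes was -0.01. Quantile normalization turned that split to 2596 higher and 2186 lower, and median centring to 2974 higher and 1975 lower. The sexes, judged by Xist and genes of the Y chromosome, were 2 female and 1 male among controls, 3 male among heterozygotes, and 1 female and 2 male among homozygotes. Control library 1 stood apart from the rest: it was the highest of the 9 for the ventral forebrain genes Lhx8 (6.67 RPKM against at most 1.497 RPKM elsewhere), Isl1 (7.37 RPKM) and Dlx1 (8.68 RPKM). The homozygous library values set against controls and against heterozygotes are the same, so these comparisons are not independent of each other.

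In homozygous cortex Th and Calb1 were far higher than in either other genotype, by 16.7-fold and 5.06-fold against control. Ddc, the next enzyme after Th, and Calb2 rose as well, by smaller amounts (1.93-fold and 1.73-fold). The vesicular transporter Slc18a2 and the regulator Nr4a2 did not pass in limma in any comparison. The cofactor enzyme Gch1 and the dopamine transporter Slc6a3 lay below the minimum for that test. Their exact permutation test of 3 against 3 libraries cannot go below p = 0.1, so it could not pass at 0.05. Gch1 did not pass in limma with a minimum of 0.1 RPKM. Over all 12291 genes 34.2% passed in homozygous against control cortex, 14.4% as higher and 19.9% as lower, and 32.8% passed against heterozygous cortex. All homozygous libraries lay above every control library for Th, Ddc, Calb1 and Calb2, as for 20.6% of all genes, and above every heterozygous library for the same 4 genes, as for 22.4% of all genes. No count of members is read against these shares, since Th and Calb1 were picked for this pattern and Th and Ddc reached the minimum only through the homozygous libraries.

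**Figure D1:**
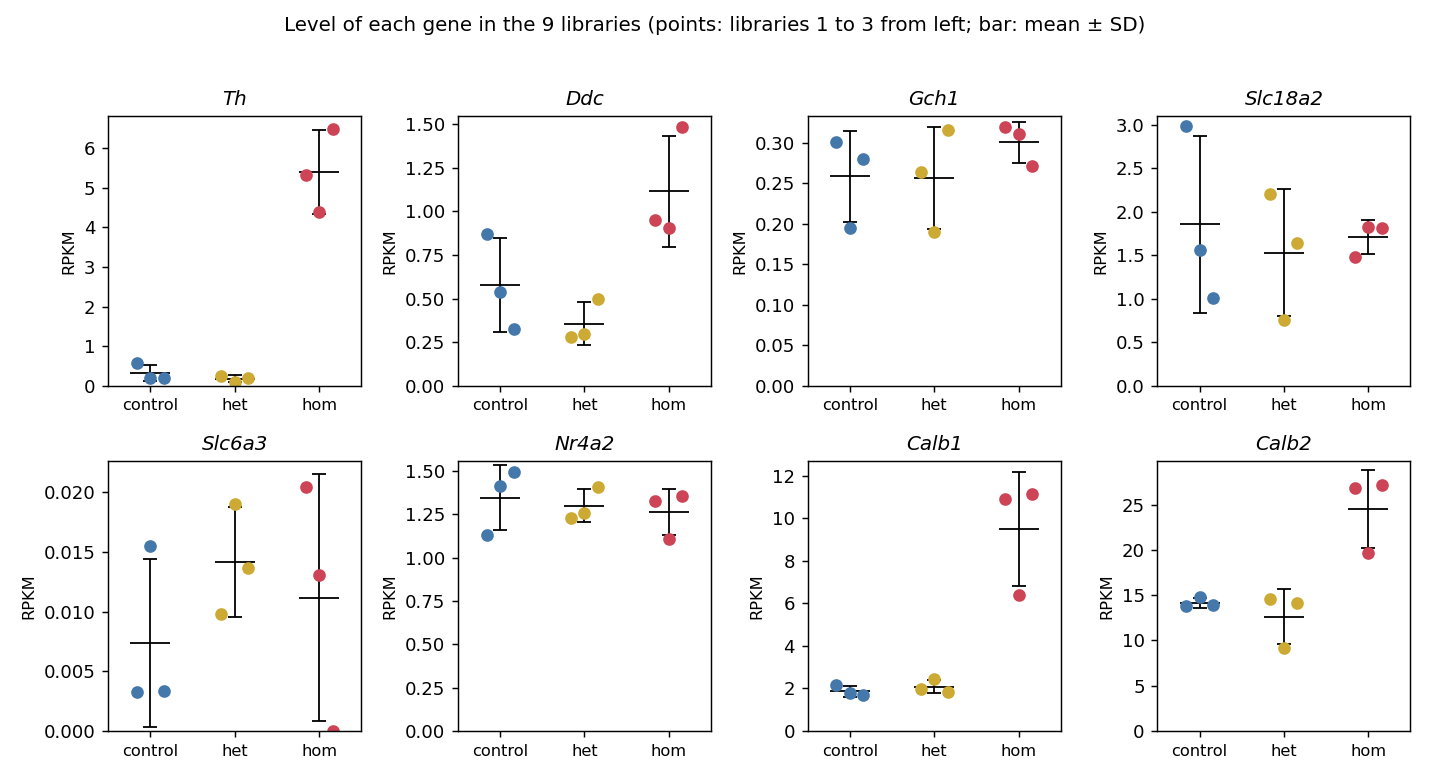
Level (RPKM) of the 8 genes in each library of control, heterozygous and homozygous cortex; points are libraries, lines with bars are the mean ± SD (n = 3). The homozygous points of Th, Ddc, Calb1 and Calb2 lie above all control and heterozygous points, and those of Gch1, Slc18a2, Slc6a3 and Nr4a2 do not.

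For Th the controls read 0.570, 0.202 and 0.198 RPKM, the heterozygotes 0.257, 0.0920 and 0.200 RPKM and the homozygotes 5.33, 4.38 and 6.48 RPKM. The last 3 lay far above the other 6, among which control library 1 was the highest. The means were 0.323 ± 0.214, 0.183 ± 0.0840 and 5.40 ± 1.05 RPKM (SD, n = 3 each). On the log2(RPKM + 0.5) scale, which understates the change of low genes, homozygous minus control was 2.86 ± 0.18 (SE) and homozygous minus heterozygous 3.10 ± 0.18; without control library 1 the first was 3.06. With a pseudocount of 0.1 the first difference was 3.79 and with 1 it was 2.27. The depth behind these levels was an estimated 62 to 184 reads per library in control, 31 to 83 in heterozygous and 1414 to 2310 in homozygous cortex.

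For Ddc the control libraries were at 0.867, 0.539 and 0.328 RPKM, the heterozygous at 0.277, 0.295 and 0.497 RPKM and the homozygous at 0.951, 0.906 and 1.48 RPKM. The homozygous libraries did not overlap the others, but control library 1 lay just under homozygous library 2. The group means were 0.578 ± 0.272, 0.357 ± 0.122 and 1.11 ± 0.320 RPKM (SD, n = 3 each). Ddc rose by 0.59 ± 0.18 (SE, log2 scale; 95% interval 0.19 to 1.00) against control, with a limma adjusted p of 0.0283. Because Ddc reached the minimum of 0.5 RPKM only through the homozygous libraries, the fit with a minimum of 0.1 RPKM, which each group of Ddc exceeds by itself, is given beside it: limma adjusted p was 0.0286 against control and 0.00327 against heterozygous cortex. Against heterozygous cortex it rose by 0.90 ± 0.18, 3.12-fold in mean level (limma adjusted p = 0.00326). The call against control was lost without control library 2 (adjusted p = 0.0761, limma), without control library 3 (0.0984), without homozygous library 3 (0.107) and with no filter on low values (0.0748), and the adjusted p was 0.00565 without control library 1. With no filter the adjusted p against heterozygous cortex was 0.0159. The second Ddc transcript followed at lower values (0.805 RPKM in homozygous library 1, where the one used was at 0.951 RPKM), and the overlapping non-coding gene 1700042O10Rik had a mean of 0.00511 RPKM in controls and 0.0194 RPKM in homozygotes.

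Gch1 was at 0.301, 0.195 and 0.279 RPKM in control, 0.264, 0.190 and 0.316 RPKM in heterozygous and 0.320, 0.310 and 0.271 RPKM in homozygous libraries. The 3 groups overlapped, and their means (0.259 ± 0.0560, 0.257 ± 0.0631 and 0.30 ± 0.0255 RPKM, SD, n = 3) differed by less than the control SD. An exact two-sided permutation test gave p = 0.3 for homozygous against control, 0.9 for heterozygous against control and 0.3 for homozygous against heterozygous cortex; 3 against 3 libraries cannot go below 0.1. With a minimum of 0.1 RPKM the limma log2 difference of Gch1 against control was 0.08 ± 0.08 (SE; adjusted p = 0.498), with 96 to 166 estimated reads per library behind its values.

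Other genes of the cofactor were also measured. Of 7 tetrahydrobiopterin genes 6 were tested, of which 4 fell and 1 rose in homozygous against control cortex (19.9% of all genes fell and 14.4% rose; median log2 difference -0.28, against -0.01 over all genes). Pts, the enzyme after Gch1, was at 15.4, 14.7 and 13.6 RPKM in control and 11.2, 10.4 and 10.5 RPKM in homozygous libraries (log2 difference -0.43 ± 0.06 SE, limma adjusted p = 0.000319), with no overlap. Pcbd2, a pterin dehydratase, fell by 0.80 on the log2 scale (limma adjusted p = 0.00173). The related dehydratase Pcbd1 rose by 0.43, from 1.37 to 2.03 RPKM (limma adjusted p = 0.00900).

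For Slc18a2 the control libraries were at 2.98, 1.56 and 1.01 RPKM, the heterozygous at 2.21, 0.750 and 1.64 RPKM and the homozygous at 1.48, 1.83 and 1.81 RPKM. All groups overlapped, and the spread was wide in control and heterozygous but narrow in homozygous cortex (1.85 ± 1.02, 1.53 ± 0.734 and 1.71 ± 0.194 RPKM, SD, n = 3). Homozygous minus control was -0.01 ± 0.30 (SE, log2 scale; 95% interval -0.67 to 0.65; limma adjusted p = 0.986), so the interval leaves room for a change in either direction. Leaving out control library 1 moved it to 0.32 (limma adjusted p = 0.398) and leaving out control library 3 to -0.29 (limma adjusted p = 0.495). Across the 9 libraries Slc18a2 went with the interneuron transcription factor Dlx1, with Pearson r = 0.925 over 9 libraries and 0.987 over the 6 control and heterozygous ones but -0.0364 over the 3 homozygous ones, and with the GABA enzyme Gad2 (r = 0.904 over 9). These genes were chosen for comparison after their values were seen, and the 9 points share 3 genotypes and the library that stands apart.

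**Figure D2:**
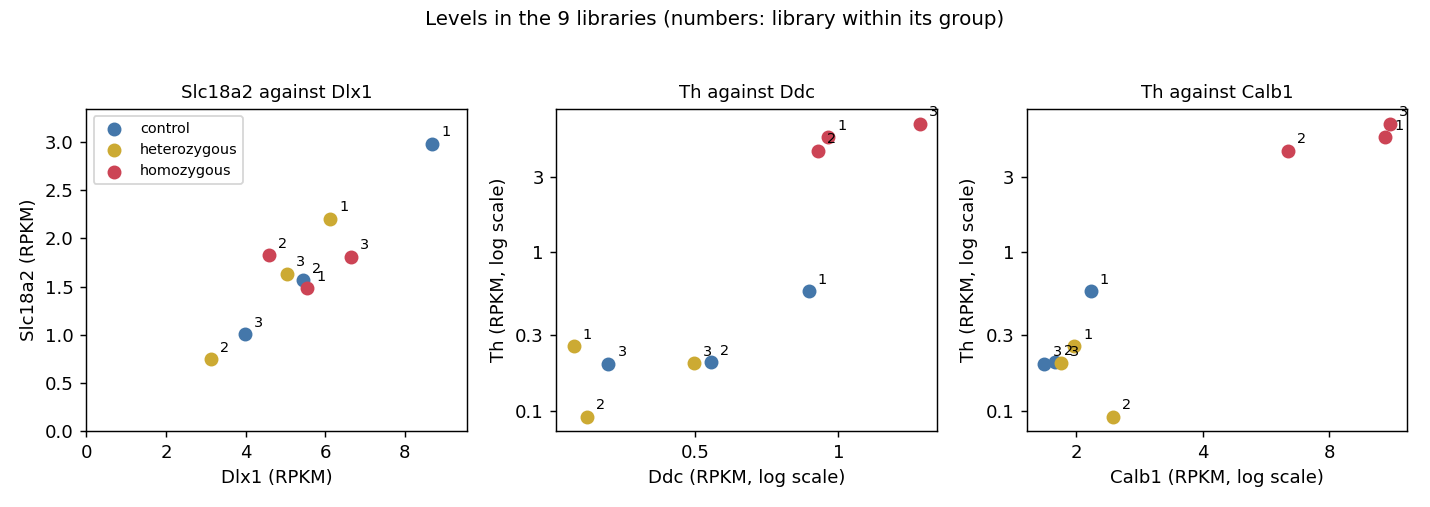
Levels in RPKM of Slc18a2 against Dlx1 (linear axes), Th against Ddc and Th against Calb1 (log axes); each point is 1 library, numbered within its group and coloured by genotype. Slc18a2 runs along Dlx1 over the control and heterozygous libraries, with control library 1 highest on both axes, but not among the 3 homozygous libraries, while the homozygous points of the Th panels lie apart from the other 6.

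Slc6a3 was close to undetected: 0.00328, 0.0155 and 0.00336 RPKM in control, 0.00981, 0.0190 and 0.0137 RPKM in heterozygous and 0.0205, 0.0131 and 0 RPKM in homozygous libraries, an estimated 0 to 12 reads each. The library with 0 allows a level of up to 0.00446 RPKM (3 reads, counting error only). The groups overlapped (exact two-sided permutation p = 0.7 for homozygous against control, 0.3 for heterozygous against control and 0.8 for homozygous against heterozygous), and no fold is given at this depth.

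Nr4a2 lay in a narrow range, at 1.13, 1.41 and 1.49 RPKM in control, 1.23, 1.26 and 1.41 RPKM in heterozygous and 1.32, 1.11 and 1.35 RPKM in homozygous libraries. All groups overlapped, with homozygous minus control at -0.06 ± 0.10 (SE, log2 scale; 95% interval -0.28 to 0.15; limma adjusted p = 0.656). Among 12 further NR4A and activity-induced genes 4 were tested, of which Jun and Crem fell and Atf3 rose (log2 differences -0.44, -0.30 and 0.34). Over all genes 19.9% fell and 14.4% rose. The calls of Crem and Atf3 were lost under several alternatives; Jun, an AP-1 subunit, kept its call against control (limma adjusted p = 0.00926). The other NR4A receptors, Nr4a1 and Nr4a3, were at 0.0975 and 0.113 RPKM in control and 0.107 and 0.0699 RPKM in homozygous cortex, below the minimum tested.

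No tested gene that handles dopamine after its synthesis rose along with Th. Of 7 genes of catecholamine conversion and breakdown 3 were tested and none passed against control, where 34.2% of all genes passed. Maoa, a monoamine oxidase, was at 14.2 RPKM in both genotypes, and the aldehyde dehydrogenase Aldh2 differed by -0.30 (limma adjusted p = 0.0547). Dbh, which makes noradrenaline from dopamine, was at 0 in all 9 libraries. Of 5 further monoamine transporters only Slc29a4 was tested (1.15 RPKM in control, 1.00 RPKM in homozygous; adjusted p = 0.171, limma). None of the 5 dopamine receptor genes reached the minimum. The highest, Drd1, was at 0.371, 0.344 and 0.579 RPKM in control and 0.189, 0.155 and 0.221 RPKM in homozygous libraries. These values did not overlap and lay in the opposite direction to Th, but Drd1 was not tested. The share of all genes lying wholly below control was not counted, so the Drd1 values are a description. The 19.9% of tested genes called lower in limma is a different measure and does not serve as its background.

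Regulators that mark dopamine neurons elsewhere in the brain were read as lists. Their counts stand beside the 14.4% of all genes that rose and the 19.9% that fell in homozygous against control cortex. Of 10 midbrain dopamine neuron factors 3 were tested: Otx2, also a gene of the choroid plexus and hem region, rose by 0.52 ± 0.13 (SE, log2 scale) between means of 5.87 and 8.63 RPKM (limma adjusted p = 0.0118), and Lmx1a and Sncg did not pass (adjusted p = 0.213 and 0.155). The other 7, with Pitx3, En1, Foxa1 and Foxa2 among them, stayed at or below 0.109 RPKM in every library, and Pitx3 was at 0 in 8 of 9 libraries. Of 12 forebrain dopamine neuron factors 7 were tested, none rose and 2 fell. Meis2, a factor of olfactory bulb dopamine neurons with a wide role in the forebrain, was at a mean of 39.6 RPKM in control and 8.53 RPKM in homozygous libraries, a log2 difference of -2.15 ± 0.08 (SE; limma adjusted p = 2.56e-08). The noradrenergic gene Phox2a was at or below 0.00681 RPKM, and of its list of 9 neither tested gene passed (Chga, adjusted p = 0.172; Chgb, 0.184; limma). The 5 serotonin neuron genes were all below the minimum, with the highest value in any library 0.183 RPKM.

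**Figure D3:**
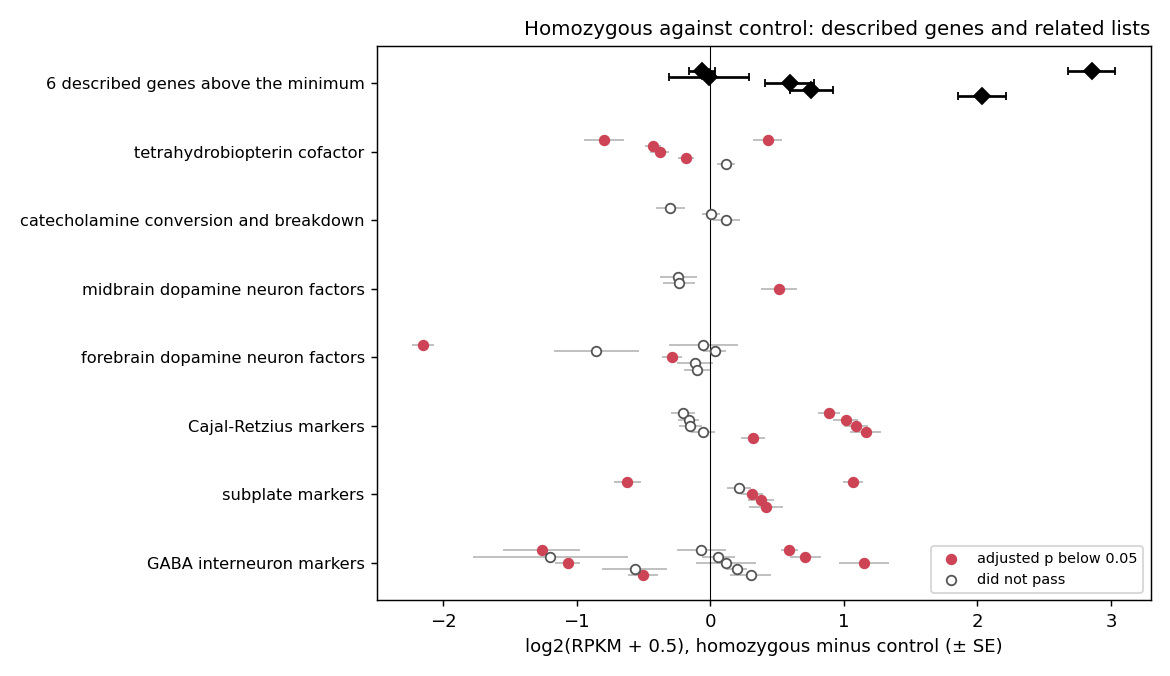
Difference of log2(RPKM + 0.5), homozygous minus control, ± SE, for the 6 described genes that reached the minimum level (black diamonds, no test shown) and for genes of 7 related lists (red, limma adjusted p below 0.05; open, did not pass). Th, at 2.86, and Calb1, at 2.04, lie to the right of every gene of the lists shown, but these 2 were picked for their rise.

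Calb1 was at 2.17, 1.78 and 1.67 RPKM in control, 1.98, 2.44 and 1.84 RPKM in heterozygous and 10.9, 6.39 and 11.1 RPKM in homozygous libraries. The homozygous libraries lay above all others, and homozygous library 2 was the lowest of them, as it was for Th and Calb2. The means were 1.87 ± 0.258, 2.09 ± 0.314 and 9.47 ± 2.67 RPKM (SD, n = 3), and the log2 difference was 2.04 ± 0.18 (SE) against control and 1.91 ± 0.18 against heterozygous cortex. Over 19 alternatives the first ranged from 1.83 to 2.28.

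For Calb2 the control libraries were at 13.8, 14.8 and 14.0 RPKM, the heterozygous at 14.6, 9.14 and 14.1 RPKM and the homozygous at 26.8, 19.6 and 27.2 RPKM. The homozygous libraries lay above the other 6, and heterozygous library 2 lay below the rest. Calb2 rose from 14.2 ± 0.559 to 24.5 ± 4.27 RPKM (SD, n = 3), a log2 difference of 0.76 ± 0.16 (SE; 95% interval 0.40 to 1.11) with a limma adjusted p of 0.00415. Against heterozygous cortex (12.6 ± 3.03 RPKM, SD, n = 3) it rose by 0.95 ± 0.16 (limma adjusted p = 0.00109). Both calls held in all 19 alternatives, with an adjusted p of 0.00121 to 0.0207 against control.

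Other genes of the EF-hand family went in both directions. Of 32 further EF-hand genes 20 were tested, of which 2 rose, 8 fell and 10 did not pass against control (14.4% of all genes rose and 19.9% fell; median log2 difference -0.09, against -0.01 over all genes). Necab2, a neuronal calcium-binding protein, rose by 1.20 ± 0.11 (SE, log2 scale) between means of 2.69 and 6.83 RPKM (limma adjusted p = 1.18e-05). Kcnip1 and Kcnip3, potassium channel interacting proteins, fell from 4.33 to 0.485 RPKM and from 1.53 to 0.347 RPKM (log2 differences -2.30 and -1.25), and Cabp1, a calmodulin-like channel regulator, from 16.4 to 3.79 RPKM (-1.95). Among the abundant calmodulin genes, Calm2 and Calm3 differed by -0.15 and 0.01 and did not pass (limma adjusted p = 0.0929 and 0.971). Pvalb, the third classical neuronal calcium buffer, was at or below 0.0381 RPKM in every library. Against heterozygous cortex 4 of the 20 rose and 7 fell, beside 14.5% and 18.2% of all genes; without homozygous library 1 the number passing was 7 in place of 11.

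Markers of cell types that carry calbindin or calretinin were read beside these values, and all counts of markers stand beside the 14.4% of all genes that rose and the 19.9% that fell. Of 10 Cajal-Retzius markers 9 were tested and 5 rose in homozygous cortex: Lhx5 from 1.26 to 3.45 RPKM, Nhlh2 from 6.80 to 14.3 RPKM, Barhl2 from 1.04 to 2.77 RPKM and Ebf2 from 0.967 to 2.21 RPKM (limma adjusted p = 1.90e-05, 1.23e-05, 3.80e-06 and 1.37e-05), and Ebf3 by 0.32 on the log2 scale. Reln and Trp73, the defining genes of these cells, did not pass (16.8 ± 1.88 to 14.9 ± 0.354 RPKM and 0.655 ± 0.0627 to 0.615 ± 0.103 RPKM, SD, n = 3; limma adjusted p = 0.148 and 0.689). The summed level of the list was 28.2 to 33.5 RPKM in control, 30.3 to 33.7 in heterozygous and 40.0 to 44.5 in homozygous libraries. This sum includes the rise of Nhlh2 from 6.80 to 14.3 RPKM, while the defining genes Reln and Trp73 did not rise. It is therefore not read as a level of Cajal-Retzius cells. The part of these markers in the change of Th, Ddc, Calb1 and Calb2 was not tested.

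Subplate and interneuron markers gave a mixed picture. Of 9 subplate markers 6 were tested, 4 rose and 1 fell, led by St18 (5.60 to 12.3 RPKM) and Lpar1 (9.07 to 5.70 RPKM), and the summed level was 27.0 to 29.1, 24.2 to 29.0 and 33.6 to 35.8 RPKM in control, heterozygous and homozygous libraries. Of 16 GABA interneuron markers 13 were tested, 3 rose and 3 fell: Gad1 was up from 0.787 to 2.33 RPKM, Cxcr4 from 9.91 to 15.2 RPKM and Prox1 from 0.563 to 1.25 RPKM, while Erbb4 and Sst were among those down (log2 differences -1.07 and -1.26). Their summed level was 24.1 to 33.7, 25.9 to 26.6 and 28.8 to 31.2 RPKM in the 3 genotypes, overlapping between homozygous and control. The part of either list in the rise of the calcium-buffer genes was not tested.

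The same reading was made for tissue next to the cortex. Of 15 markers of the diencephalon and cortical hem 8 were tested and 3 rose. Lhx9 went from 3.53 to 7.02 RPKM, Tcf7l2 from 0.375 to 0.796 RPKM, and Rspo3 rose by 0.29 on the log2 scale, a call lost under 5 alternatives. The control mean of Tcf7l2 lay below the minimum of 0.5 RPKM, so it reached the test only through other libraries. The summed level was 40.3 to 45.6, 37.0 to 43.6 and 49.4 to 52.5 RPKM in control, heterozygous and homozygous libraries. The thalamic gene Gbx2, below the minimum, was at 0.551, 0.00685 and 0.0137 RPKM in control and 0.756, 1.04 and 0.509 RPKM in homozygous libraries. Of 12 cortical identity markers all were tested, 7 fell and 2 rose, with Lhx2 from 49.7 to 30.9 RPKM, Emx1 from 68.6 to 44.2 RPKM and Fezf2 from 3.98 to 2.45 RPKM, and their sum was 266 to 350, 307 to 332 and 198 to 235 RPKM. Of 8 olfactory and sensory epithelium markers, a list that holds widely expressed genes such as Gap43, 5 were tested, with Ebf1 up (0.68) and Eya1 down (-0.46). Of 8 neural crest and mesenchyme markers 6 were tested and Prrx1 alone passed, lower by 0.47. Where Th and Calb1 were high, the sum of the cortical identity markers was thus lower, without overlap with control. The sum of the mixed diencephalon and hem list was higher, also without overlap, though only 3 of its 8 tested genes rose. The part of either list in the changes of Th and Calb1 was not tested.

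Heterozygous cortex, which kept 85.6% of the Sfpq level, gave no call for any of the 6 tested members. None of the 12291 genes passed against control (0%; 706 genes, 5.74%, had an unadjusted p below 0.05 in limma), and the fit to these 2 groups alone called 1 gene, Rps3a1, named for being the single call. The log2 difference from control was -0.25 ± 0.18 (SE) for Th, -0.31 ± 0.18 for Ddc, -0.20 ± 0.30 for Slc18a2, -0.03 ± 0.10 for Nr4a2, 0.12 ± 0.18 for Calb1 and -0.19 ± 0.16 for Calb2, with limma adjusted p of 0.936 or more. The 95% interval for Th ran from -0.64 to 0.14 and that for Calb1 from -0.27 to 0.52.

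The order of the levels shows how far Th moved among the 8 genes. In control cortex Calb2 stood first, followed by Calb1, Slc18a2 and Nr4a2, whose ranges overlapped from one to the next, then by Ddc, Th and Gch1, again overlapping neighbours, and last by Slc6a3. Heterozygous cortex had the same order except that Gch1 stood before Th, with overlapping ranges. In homozygous cortex Th moved up to the third place, its range of 4.38 to 6.48 RPKM just overlapping that of Calb1 from 6.39 to 11.1 RPKM and lying above that of Slc18a2. Nr4a2 and Ddc overlapped below them, and Gch1 and Slc6a3 kept the last places.

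How the members varied together differed between sets of libraries. Th and Ddc had a Pearson r of 0.795 over the 6 control and heterozygous libraries and 0.907 over the 3 homozygous ones. Th and Slc18a2 had 0.886 and -0.0267 over the same sets, and control library 1 was the highest of the 6 for all 3 genes. Th and Calb1 had an r of 0.972 over all 9 libraries, 0.0349 over the 6 and 0.882 over the 3 homozygous libraries, where Calb1 and Calb2 also went together. An r over 3 libraries carries little weight. The genes most like Th over the 9 libraries, by Pearson r of log2(RPKM + 0.5) among all tested genes, were Msantd4 (0.995), Rhpn1 (0.995), Cx3cl1 (0.992), a non-coding transcript listed as NR_040692 (0.991) and Epb41l4b (0.991), and none of them changed as much as Th: Rhpn1 went from 2.26 to 4.79 RPKM and Msantd4 from 56.9 to 67.5 RPKM. Those most like Calb1 were Lhx9 (0.993), Kcnh8 (0.988), Ccng1 (0.986), Plcl2 (0.986) and Scel (0.986); Ccng1, a p53 target, went from 14.8 to 40.0 RPKM and Scel from 0.0362 to 1.59 RPKM. These r values rest largely on the step between the homozygous and the other libraries and are given as a description. Cx3cl1, NR_040692, Epb41l4b and Scel, like Th, reached the minimum of 0.5 RPKM only through the homozygous libraries.

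Genes beside Th and Calb1 on the chromosome did not share their rise. The 2 nearest measured genes on each side of Th (Igf2os, Ins2, Ascl2 and Tspan32) stayed at or below 0.168 RPKM in every library, with means of 0.0760, 0.0350, 0.0115 and 0.115 RPKM in control and 0.0728, 0.0230, 0.0203 and 0.147 RPKM in homozygous cortex. Around Calb1, Tmem64, Decr1 and Nbn did not pass (6.02 to 6.08, 8.33 to 7.39 and 15.2 to 16.4 RPKM; limma adjusted p = 0.906, 0.119 and 0.304), and Necab1, itself an EF-hand gene, was at 0.255 and 0.262 RPKM. Around Calb2, Zfp612 and Cmtr2 did not pass (limma adjusted p = 0.996 and 0.850). Next to Ddc, the growth factor receptor adaptor Grb10 fell by 1.22 on the log2 scale, with means of 91.4 and 39.2 RPKM (limma adjusted p = 8.46e-06), while Ddc rose.

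The 8 genes are of short or moderate genomic span on GRCm38.p6, from 7.22 kb for Th to 84.0 kb for Ddc, with Calb1 and Calb2 at 25.4 and 25.7 kb and Slc18a2, Gch1 and Slc6a3 at 35.1, 35.5 and 42.5 kb. Members that were higher in homozygous cortex and the other members therefore overlapped in span.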

How the data were processed

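RNA was read from cerebral cortex of 9 mouse embryos (3 control, 3 heterozygous, 3 homozygous for an Sfpq mutation); groups follow the labels. Each library has 1 deposited table of RPKM values, made by the authors, for 30978 transcripts, per the file headers. Per the submitters' processing notes, CASAVA 1.8.2, TopHat 1.4.1 and the build mm9 were used. The counting program, annotation and use of strand: not given in the sources used here. Overlapping genes are uncertain for that reason.

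Transcripts were named from a RefSeq table (30503) or GENCODE (182), and 293 had no name. Each of 23494 genes was represented by the transcript with the highest mean RPKM. Lengths and spans come from GRCm38.p6 and not from the authors' build. Low values fell within 0.1 of a whole read for 68.6% to 72.4% of values worth under 5 reads, which gave the estimated depths; tables hold no counts, so no count test was run. One limma 3.58.1 model (R 4.3.3, mean-variance trend) took all 9 libraries on log2(RPKM + 0.5), for 12291 genes whose mean reached 0.5 RPKM. Members below that minimum were tested with an exact two-sided permutation test (scipy 1.17.1). On simulated data for homozygous against control cortex (12291 genes, 200 changed, 10 runs) 75% of log2 changes of 0.5 and 97.2% of log2 changes of 1 were found, and 4.67% of calls were false. In the data 4209 genes were called, so these rates need not hold there. They average over genes, whose median SE was 0.083 in the data, against 0.18 for Ddc and 0.30 for Slc18a2. No libraries held identical values.

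The 8 genes and 17 further lists were chosen with earlier results of these data known: tetrahydrobiopterin cofactor, conversion and breakdown, monoamine transport, dopamine receptors, midbrain and forebrain dopamine factors, noradrenergic, serotonin, NR4A and activity-induced, EF-hand, Cajal-Retzius, subplate, GABA interneuron, cortical identity, diencephalon and hem, olfactory, and neural crest genes. Named genes are the 8 members, up to 4 genes per list that passed against control, by smallest adjusted p (otherwise the 2 most abundant), defining markers of the lists, the 5 genes most like Th and Calb1 by Pearson r, and the 2 nearest measured genes on each side of a member; some others were added after their values were seen (Pitx3, Gbx2, Ebf3 and Sst, for example). Some genes within the rule are not reported here. Alternatives changed the pseudocount, filter, scaling, transcript, groups fitted, covariates and libraries. Each library is taken as a separate embryo, as the series design states.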

Additional observations from a re-analysis of the deposited data

How the results depend on the processing

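Directions of Th, Ddc, Calb1 and Calb2 in homozygous cortex held under every alternative run. With a minimum mean of 2 RPKM, 2 members lay past the threshold in place of 4 (a count that includes Th and Calb1, picked by value) in homozygous against control and in homozygous against heterozygous cortex, because Th and Ddc were no longer tested. In heterozygous against control cortex the fit of these groups alone called 1 gene in place of 0; every other alternative called 0. Leaving out 1 library gave 3143 to 3916 genes in homozygous against control and 3050 to 3693 in homozygous against heterozygous cortex, and 3 to 4 members against control and 4 against heterozygous cortex. Median centring called 2921 of 4753 genes higher and quantile normalization 2449 of 4564 in homozygous against heterozygous cortex, where the reported fit called 1788 of 4031. Over the named genes, comparisons and alternatives with a limma test there were 2548 values. Of these 2482 stayed on the same side of the threshold, 59 lost a call, 7 gained a call and 0 reversed. This total says little about how firm single calls are. It includes heterozygous against control cortex, where at most 1 gene passed under any alternative, and genes named because they passed against control. Ddc lost its call against control in 4 of 18 alternatives.

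The labels number libraries 1 to 3 in each group. Most same-numbered libraries did not deviate together (r of -0.0437 to 0.404, over 0.1 in 2 of 9 pairs). The 2 exceptions were control with homozygous library 1 (0.404) and control with homozygous library 3 (0.319). Differently numbered pairs ran from -0.438 to 0.0936. Whether same-numbered libraries share more than a number was not tested. With a replicate block 4467, 0 and 4310 genes passed in the 3 comparisons, and no member moved across the threshold.

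Slc6a3 had an estimated 0 to 12 reads per library, so small changes of it were not detectable. With 3 embryos per group the intervals of Slc18a2 are wide, and sex was unequal between groups; with sex in the model the log2 difference of Th was 2.91 and that of Ddc 0.65.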
